A study of Xenopus tropicalis with 9 samples.

Results

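Immature cartilage cells of the humerus were set against bone-forming cells of the lower jaw in 6 libraries, 3 of each cell type, out of 9 in the study. The libraries were chosen by the cell type given in the labels. Of the 10336 genes of the table, the 8732 that passed a filter on level were tested. All animals were untreated wild-type Xenopus tropicalis, the western clawed frog, at stage NF 57, aged 22 to 24 days after fertilisation and kept at 27 to 28 °C. The first group held immature chondrocytes of the humerus, labelled as immature cartilage. The other held osteoblasts of the medial angulosplenial, a bone of the lower jaw. Cells were isolated by laser capture microdissection. The labels name no animal for any library, so the spread between libraries may be partly technical. Cell type and skeletal site differed together, and their effects cannot be told apart here.

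Chondrocytes make the matrix of cartilage, which is rich in type II collagen and the proteoglycan aggrecan, under the control of the transcription factor Sox9. Osteoblasts lay down a matrix of mostly type I collagen that then mineralises, and their formation depends on Runx2 and Sp7. In limb bones such as the humerus, a cartilage model forms first and is later replaced by bone. The angulosplenial forms around the cartilage of the lower jaw without being preformed in cartilage. The table names genes by Ensembl identifiers alone, and the gene table used here paired 0 of the 10336 identifiers with a symbol. The labelled cell types were therefore not checked against marker genes, gene lists were not tested, and no gene below is given a name or a role.

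The deposited totals were 7854945 to 8860505 in the immature chondrocyte libraries and 7885947 to 10886339 in the osteoblast libraries. The estimated numbers of reads behind them were 9460000 to 10730000 for immature chondrocytes and 7560000 to 13080000 for osteoblasts. Levels of single genes are given in ppm, a gene's part of its library's deposited total multiplied by 1000000, and are not corrected for gene length. The immature libraries resembled each other more than the osteoblast libraries did. Across the tested genes, which are not independent replicates, Pearson's r was 0.95 to 0.97 between immature libraries, 0.75 to 0.78 between osteoblast libraries and 0.65 to 0.69 between the cell types. The SD of a gene's log2 value had a median of 0.34 in immature chondrocytes and 0.99 in osteoblasts. It was higher in osteoblasts for 87.7% of the tested genes. Osteoblast replicate 1 listed 2231 genes at 0, against 759 to 1132 in the other 5 libraries compared here.

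Of 8732 genes tested, 641 were higher and 708 were lower in immature chondrocytes than in osteoblasts. A gene was called at an adjusted p under 0.05 (limma with a variance trend on the 6 libraries, Benjamini-Hochberg adjustment over all tested genes). Calls made up 15.4% of the tested genes, 7.34% higher and 8.11% lower. Without adjustment, 2500 genes had a p under 0.05. The direction with more calls turned in 3 of 18 alternatives. With every library brought to the same total, 786 genes were higher and 687 were lower, without osteoblast replicate 2 the counts were 903 higher and 774 lower, and without osteoblast replicate 3 they were 990 higher and 773 lower. The scaling moved the median log2 difference of all tested genes to 0.36, against 0.25 with the deposited values. In bulk libraries of this kind, fewer cells with a transcript and less of it per cell cannot be told apart. Leaving out immature replicate 1, 2 or 3 reduced the calls to 496, 436 or 468.

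**Figure D1:**
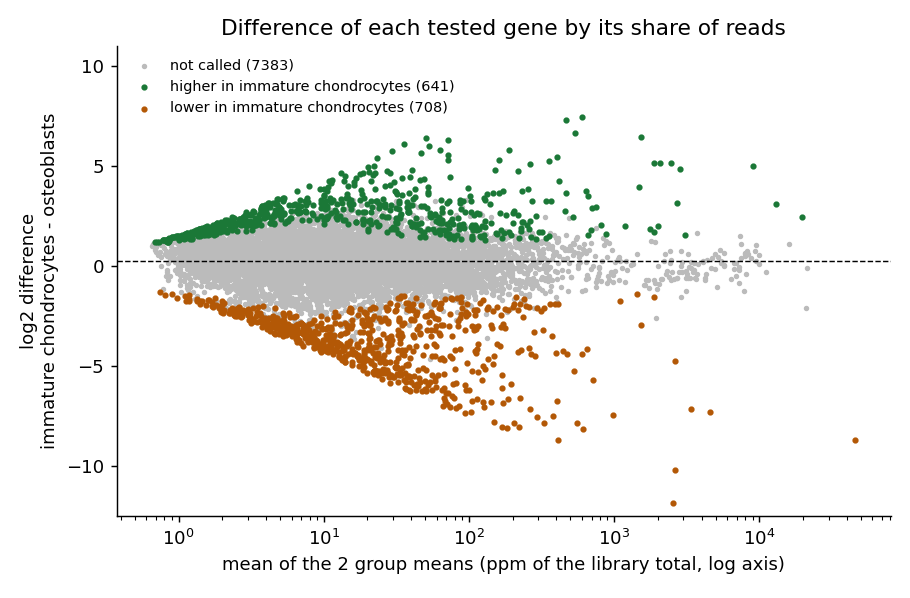
Each point is 1 of the 8732 tested genes, with the mean of its group means in ppm on a log axis and its log2 difference, immature chondrocytes minus osteoblasts, on the vertical axis. Green points are the 641 genes called higher in immature chondrocytes, orange points the 708 called lower, and the dashed line is the median difference of 0.25. The orange points reach -11.84, while the green points reach 7.46.

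The genes that were lower in cartilage differed by more than those that were higher. The 641 higher genes had a median log2 difference of 2.29, and the 708 lower genes one of -3.38. Relative to the median of all tested genes these values were 2.04 and -3.62. A log2 difference of 3 or more, which is 8-fold, was reached by 166 higher and 440 lower genes. A difference of 64-fold was reached by 8 higher and 57 lower genes, and one of 256-fold by 0 higher and 8 lower genes. These folds are on a scale with 1 ppm added to every value, which shrinks the difference of rare transcripts. Of the called genes, 80 higher ones were at 0 in all 3 osteoblast libraries and 98 lower ones were at 0 in all 3 immature libraries. With those genes set at the lower bound that 3 reads per library allows, the medians were 2.47 for higher and -3.71 for lower genes. On that basis 201 higher and 469 lower genes passed 8-fold. Only those genes were recomputed, without the added 1 ppm, so these figures mix 2 scales. All other called genes, also those near 0, kept the 1 ppm. The 8-fold count was larger for lower than for higher genes in 18 of 18 alternative settings. The counts themselves ran from 72 to 338 for higher and from 209 to 593 for lower genes. Both ends of each range came from changing the pseudocount.

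**Figure D2:**
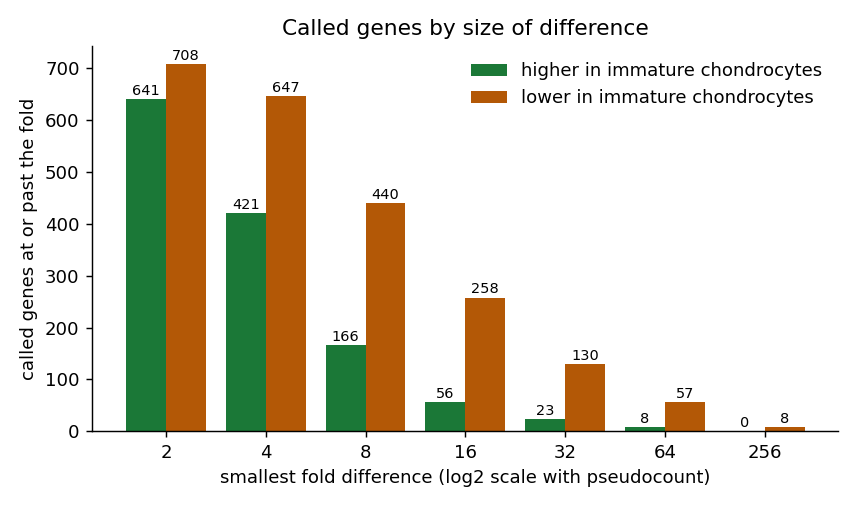
Bars count the called genes whose log2 difference reaches at least the fold on the horizontal axis, with green for genes higher and orange for genes lower in immature chondrocytes. At 8-fold the counts are 166 and 440, and at 64-fold they are 8 and 57.

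The contrast in size was also present among genes with similar shares of reads in the group where they were higher. Under 10 ppm in the higher group, 272 higher genes had a median log2 difference of 1.93 and 125 lower genes one of -2.43. There 4.04% of the higher and 13.6% of the lower genes differed at least 8-fold. This class held more of the higher than of the lower genes, so the totals above compare sets of unlike level. At 10 to 100 ppm in the higher group, 218 higher genes had a median log2 difference of 2.95 and 404 lower genes one of -3.71. In that range 47.7% of the higher and 75.2% of the lower genes differed at least 8-fold. The median was 3.08 ppm in osteoblasts for those higher genes and 0.532 ppm in immature chondrocytes for those lower genes. The second value is under the 1 ppm added to every value, so the size of many of these differences depends on it. At 100 to 1000 ppm the medians were 2.24 for 126 higher genes and -4.16 for 162 lower genes. At 1000 ppm or more they were 3.08 for 25 higher genes and -5.69 for 17 lower genes. At 100 to 1000 ppm the 126 higher genes had a median of 35.6 ppm in osteoblasts, and the 162 lower genes a median of 11.2 ppm in immature chondrocytes. No test was made of these contrasts between the directions, since each direction was selected by its own calls.

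The 6 libraries separated completely at every called gene: the lowest library of the higher group stood above the highest library of the other group for 641 of 641 higher and 708 of 708 lower genes. Such separation held for 34.8% of all tested genes, 19.6% with immature chondrocytes higher and 15.2% with them lower. The gap between the groups was at least 2-fold for 517 of the higher and 639 of the lower calls. It was at least 8-fold for 56 higher and 198 lower calls. Conversely, 11 genes with a higher and 17 with a lower mean in immature chondrocytes differed at least 8-fold and were not called. The osteoblast libraries spread widely at those 28 genes, with a median SD of 2.40 on the log2 scale against 0.30 in immature chondrocytes.

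Calls were made at all levels, with a balance that differed along the range. Higher calls outnumbered lower ones under 3 ppm and, by less, at 300 ppm or more. Lower calls outnumbered higher ones in each class between 3 and 300 ppm. Among 1354 tested genes with a mean under 3 ppm over the 6 libraries, 14.5% were higher and 4.21% lower in immature chondrocytes. Among 2393 genes at 10 to 30 ppm the shares were 4.39% higher and 8.40% lower. Among 178 genes at 300 to 1000 ppm they were 12.9% higher and 11.8% lower, and among 137 genes at 1000 ppm or more 10.9% higher and 7.30% lower. A gene could pass the filter through the 3 libraries of 1 group alone. Of the called genes, 253 of 641 higher and 358 of 708 lower ones were under 1 ppm of the mean deposited total in every library of the other group. Zeros were frequent in the group where a called gene was lower. Of the 641 higher genes, 281 were at 0 in osteoblast replicate 1, 185 in replicate 2 and 138 in replicate 3. Of the 708 lower genes, 205, 173 and 189 were at 0 in immature replicates 1, 2 and 3. Osteoblast replicate 1 was below both other osteoblast libraries at 206 of the 641 higher genes. Without osteoblast replicate 1, 845 genes were higher and 872 were lower, a smaller rise in higher calls than without osteoblast replicate 2 or 3. The parts of the filter and of these zeros in the balance of calls were not tested.

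At the other end of the range, a few genes took a large share of the reads. The gene with the largest share took 2.85% to 3.73% of an immature chondrocyte library and 7.37% to 12.3% of an osteoblast library. The 10 genes of largest share took 17.8% ± 0.405 of the reads of immature chondrocytes and 22.4% ± 3.61 of those of osteoblasts (SD, n = 3 each). The groups did not overlap in either measure. An exact two-sided permutation test gave p = 0.1 for each, the smallest p that 3 against 3 libraries can give. It was 0.2 after Benjamini-Hochberg adjustment over the 4 such measures compared. The 2 measures are not separate, since the 10 genes include the gene of largest share. Immature minus osteoblast, the mean difference in percent of the reads was -5.78 for that gene and -4.61 for the 10 together. The 100 genes of largest share took 60.9% ± 2.75 of the reads of immature chondrocytes and 61.0% ± 5.38 of those of osteoblasts (SD, n = 3 each), a difference within the spread (exact two-sided permutation test, p = 0.9, and 1 after the same adjustment). Of the 10 genes of largest mean share in immature chondrocytes, 3 were called higher there and 9 had a positive log2 difference. Of the 10 largest in osteoblasts, 2 were called lower in immature chondrocytes. Among the 500 genes of largest share in immature chondrocytes 90 were called higher and 6 lower, and among the 500 of osteoblasts 13 were called higher and 102 lower, where 7.34% of all tested genes were higher and 8.11% lower. Ranking genes by their level in 1 group favours calls in its direction, so nothing is read from these counts.

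The genes followed singly are the 2 called genes in each direction with the largest share in the group where they were higher. The rule also required groups that do not overlap, which held at every called gene. ENSXETG00000001182 stood at 35171, 27251 and 37330 ppm in immature chondrocytes, against 4083, 3817 and 10762 ppm in osteoblasts. It ranked first or second in every immature library and between 7 and 54 in the osteoblast libraries, of which replicate 3 was the highest. Its log2 difference was 2.45 (SE 0.56, limma adjusted p = 0.0204). The groups did not overlap, but the call was lost without any 1 immature library or without osteoblast replicate 2. The limma adjusted p was 0.102, 0.0784 and 0.0994 without immature replicate 1, 2 or 3 and 0.0584 without osteoblast replicate 2, over a range of 0.00398 to 0.102 in its alternatives.

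ENSXETG00000010839 stood at 21662, 28487 and 20489 ppm in immature chondrocytes, against 2545, 3679 and 1681 ppm in osteoblasts. It was the highest gene of immature replicate 2 and ranked 57 to 113 in the osteoblast libraries. Its log2 difference was 3.08 (SE 0.40, limma adjusted p = 0.00192). The lowest immature library was above the highest osteoblast library by 2.38 on the log2 scale. This gene kept its call without any 1 of the 6 libraries, with adjusted p from 0.00355 to 0.0239 (limma).

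ENSXETG00000003374 had the largest share of all genes in each osteoblast library. It stood at 342, 241 and 163 ppm in immature chondrocytes, against 73681, 122851 and 77717 ppm in osteoblasts. It was also counted in every immature library, where its rank was 277 to 627. The mean was 368 times higher in osteoblasts, and the log2 difference was -8.67 (SE 0.44, limma adjusted p = 3.38e-05). The closest libraries of the groups were 7.58 apart on the log2 scale.

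ENSXETG00000010707 stood at 75.5, 61.0 and 51.0 ppm in immature chondrocytes, against 7822, 8331 and 10957 ppm in osteoblasts. All 3 immature libraries lay far below every osteoblast library. The mean was 145 times higher in osteoblasts, and the log2 difference was -7.29 (SE 0.39, limma adjusted p = 3.38e-05). Its rank was 1112 to 1857 in the immature and 6 to 11 in the osteoblast libraries.

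**Figure D3:**
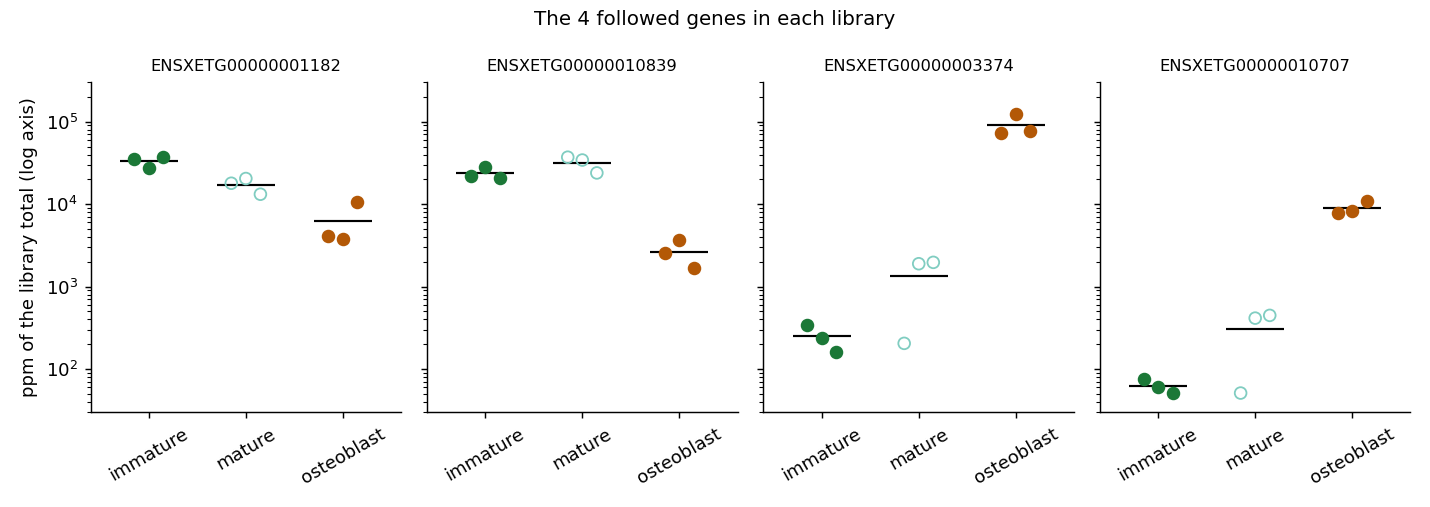
Points are libraries, in ppm of the library total on a log axis, and black lines are means of 3 libraries. Filled green and orange points are the immature chondrocyte and osteoblast libraries of the comparison, and open points are the mature chondrocyte libraries, which were not in it. The rule that chose the 4 genes required that green and orange points do not overlap. The first mature library lies with the immature ones for the 2 genes on the right.

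The higher genes took a smaller part of the reads in immature chondrocytes than the lower genes did in osteoblasts. Without the gene of largest share in each set, the order of the means turned. The 641 higher genes made up 15.9%, 17.6% and 18.6% of the immature chondrocyte libraries, against 2.37%, 2.18% and 2.61% of the osteoblast libraries. The 708 lower genes made up 0.936%, 0.829% and 0.817% of the immature libraries, against 19.5%, 20.8% and 19.6% of the osteoblast libraries. Without the gene of largest share in each set, the higher genes took 14.1% ± 1.42 in immature chondrocytes and 1.76% ± 0.215 in osteoblasts, and the lower genes took 0.836% ± 0.0577 in immature chondrocyte libraries and 10.8% ± 2.02 in osteoblast libraries (SD, n = 3 each). ENSXETG00000003374 alone held 7.37% to 12.3% of an osteoblast library. These sums follow from how the genes were chosen and carry no test.

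**Figure D4:**
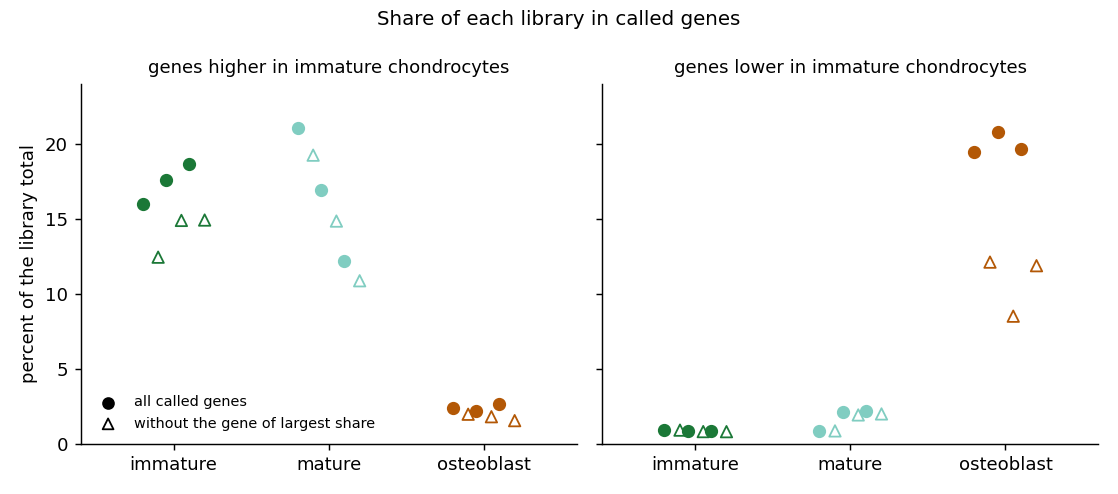
Points are libraries. The vertical axis is the percent of a library's total in the 641 genes called higher (left) and the 708 called lower (right) in immature chondrocytes, as filled circles, and without the gene of largest share, as open triangles. The higher genes take 15.9% to 18.6% of immature libraries and the lower genes 19.5% to 20.8% of osteoblast libraries.

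Some transcripts were near or below the floor of 1 cell type. The level of 1 ppm of the mean deposited total was reached by 319 genes in all 3 immature chondrocyte libraries and in none of osteoblasts, and by 423 genes in the reverse case. The immature set held genes of low share: its median was 2.96 ppm in immature chondrocytes, and 26 of 319 genes reached 10 ppm. The osteoblast set had a median of 14.5 ppm in osteoblasts, and 264 of 423 genes reached 10 ppm, 33 of them 100 ppm. A count of 0 leaves room for a level worth up to 3 expected reads, which is 0.229 to 0.397 ppm in these libraries. A transcript below that level could have been missed, so a 0 does not show that it was absent. The 319 genes became 645 without osteoblast replicate 2 and 575 without osteoblast replicate 3, and the 423 became 664 without osteoblast replicate 1. Leaving out a library relaxes the rule, so these counts could only stay or rise.

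Few genes had a difference whose interval stayed within 2-fold. The intervals were made for each gene alone, without adjustment over the tested genes. They do not show similarity by the standard used for the calls. The 95% interval of the log2 difference lay wholly between -1 and 1, within 2-fold, for 56 of 8732 genes, 0.641%. Their median level was 181 ppm in immature chondrocytes and 176 ppm in osteoblasts, while all tested genes had a median of 12.7 ppm in immature chondrocytes and 13.5 ppm in osteoblasts. The interval of the median gene was ± 1.44 on the log2 scale, so most uncalled genes could differ more than 2-fold. Uncalled genes are therefore not shown to be alike.

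The mature chondrocytes of the humerus, which were not in the fit, gave a reading of the called genes in 3 further cartilage libraries. Mature replicate 2 shares the title number 61 with osteoblast replicate 3, and mature replicate 3 shares 62 with immature replicate 3. Mature replicate 1 shares its number with no other library. Each mature library was placed by whether its log2 value, on the scale of the deposited values, was nearer the immature or the osteoblast mean. Mature replicate 1 was nearer the immature mean at 99.2% of the 641 higher and 99.7% of the 708 lower genes. Mature replicates 2 and 3 were nearer the immature mean at 54.0% and 55.5% of the higher genes and at 80.8% and 79.8% of the lower genes. These libraries stood apart from mature replicate 1 in other ways. They listed 2014 and 1430 genes at 0, against 958 in mature replicate 1, and their 100 genes of largest share took 68.0% and 71.4% of the reads, against 55.1%. The estimated worth of 1 read was 1.59 in each of them and 0.939 in mature replicate 1. Their deposited totals were 11414708 and 14055110, against 7594328 in mature replicate 1. The libraries were not brought to the same total here, and a larger total need not raise all log2 values of a library alike. Of the 641 higher genes, 102 and 59 were at 0 in mature replicates 2 and 3 and 0 in mature replicate 1. A gene at 0 counts as nearer the osteoblast mean in that set. Of the 708 lower genes, 201, 272 and 218 were at 0 in mature replicates 1, 2 and 3. There a gene at 0 counts as nearer the immature mean, so zeros act in opposite directions on the percentages of higher and lower genes. The part of the zeros and of the other differences between these libraries in the percentages was not tested. At 203 higher and 88 lower genes, 2 of the 3 mature libraries were nearer the osteoblast mean. At 263 higher and 515 lower genes all 3 mature libraries were nearer the immature mean. The called genes were selected on the immature and osteoblast values, so both means are extreme by choice, and no test was made.

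**Figure D5:**
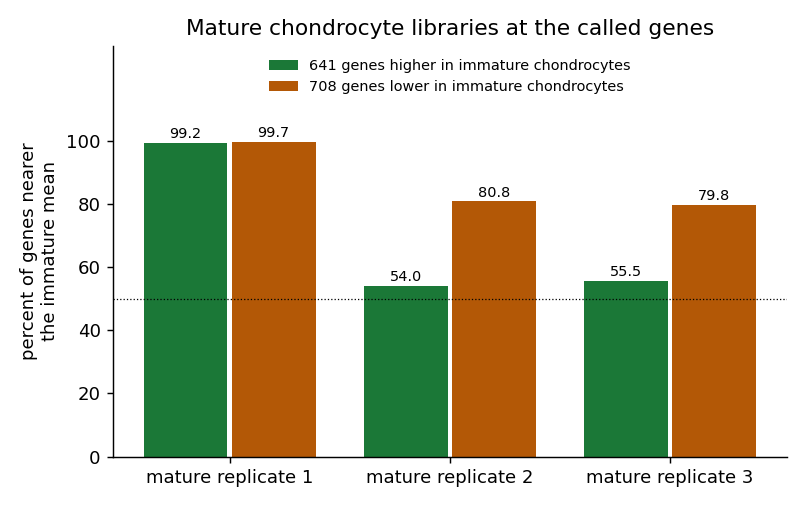
Bars give, for each mature chondrocyte library, the percent of called genes whose log2 value is nearer the immature than the osteoblast mean, with green for the 641 genes higher and orange for the 708 genes lower in immature chondrocytes. The dotted line is at 50%. Replicate 1 is at 99.2% and 99.7%, and replicates 2 and 3 are lower in both sets, more so for the higher genes.

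The 4 genes followed singly differed in this respect. Their levels are given in ppm, not on the scale of the deposited values used for the percentages. ENSXETG00000010839 stood at 37095, 34279 and 23921 ppm in the mature libraries, at or above its immature range of 20489 to 28487 ppm. ENSXETG00000001182 stood at 17928, 20452 and 13192 ppm, in ppm between the immature and osteoblast libraries in each case. By deposited value, mature replicate 2 stood at 233451, within the immature range of 214051 to 311635, and replicates 1 and 3 stayed between the groups. ENSXETG00000003374 stood at 205, 1895 and 1969 ppm, and ENSXETG00000010707 at 51.2, 415 and 448 ppm. For these bone-rich genes mature replicate 1 was within the immature range in ppm, and replicates 2 and 3 were above it and below every osteoblast library. By deposited value, mature replicate 1 was at 389 for ENSXETG00000010707, below the lowest immature library at 422.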

How the data were processed

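RNA from 9 laser-captured samples was sequenced after 1 round of linear amplification, per the labels' protocols. The submitters' processing notes list Trimmomatic 0.36, STAR 2.5.3a and edgeR. The build, annotation, counting, gene filter and scaling are not given in the sources used here. Whole numbers fill the deposited table and were treated as a score: read counts scaled by the authors with 1 factor per library and rounded, as regularly skipped or doubled low values show. The highest value of every gene is 12 or more. The worth of 1 read was estimated from those gaps and is least certain in osteoblast replicate 1, where it is close to 1. Exact reads were not recovered where it was below 1, so count models were left out.

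The scale used was log2(value + 8.77), with 8.77 equal to 1 ppm of the mean deposited total of the 6 libraries. Genes at that value or more in at least 3 of them were tested, 8732 of 10336, in limma 3.58.1 (R 4.3.3) with a variance trend, a single spread for both groups and the 6 libraries only. The single spread is an approximation, since the median SD was 0.34 in immature chondrocytes and 0.99 in osteoblasts. With library weights 1266 genes were called, 1131 of them shared with the reported calls. The test was tried on simulated data, and the outcome is not reported here. The rule for genes named singly took the 2 of largest mean ppm in each direction among calls of at least 1 on the log2 scale with groups that do not overlap. The comparison, rule and lists were chosen with earlier results of these data known. The fixed gene and marker lists were not run for want of symbols. Tables and figures used Python 3.11.15, numpy 2.4.6, pandas 2.3.3, scipy 1.17.1 and matplotlib 3.10.9.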

Additional observations from a re-analysis of the deposited data

How the results depend on the processing

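The alternatives changed the pseudocount, filter, scaling, variance model, library weights, the libraries fitted and the threshold, and left out each library in turn. The 1349 calls fell to 764, with 342 higher and 422 lower in immature chondrocytes, where only the 5047 genes at 10 ppm or more in at least 3 libraries were tested. They fell to 492, with 174 higher and 318 lower, at an adjusted p under 0.01. Both settings admit fewer genes by construction. In the other 10 settings the counts of all, higher and lower calls were within 1.5 times those reported. The 8-fold counts, 166 higher and 440 lower as reported, moved most with the pseudocount. They were 338 and 593 at 0.25 times the pseudocount and 72 and 209 at 4 times. With 1 library left out, calls ran from 436 to 1763, with 167 to 990 higher and 269 to 872 lower. The lower counts came without an immature library and the upper ones without an osteoblast library, and the cause was not tested. The share of higher calls was 35.4% at an adjusted p under 0.01, against 47.5% at 0.05. No gene called in both the reported and an alternative fit changed direction. Genes at 1 ppm in 1 cell type alone ran from 330 to 645 for immature chondrocytes and from 444 to 664 for osteoblasts with 1 library left out. That rule is relaxed by leaving out any library, so its counts could not fall. At an adjusted p under 0.01, mature replicates 1, 2 and 3 were nearer the immature mean at 100%, 61.5% and 62.1% of the higher genes. For the lower genes the values were 100%, 83.6% and 82.4%. The groups compared share only 1 title number, and a random block for it gave no estimate in the 6 libraries. Deviations of that pair correlated at 0.32 across genes, as did those of 1 pair with different numbers. With all 9 libraries, where 3 title numbers are shared, a replicate block added after seeing the data gave 1472 calls, 683 higher and 789 lower, and changed no call of the 4 genes followed singly. A transcript with fewer than 3 expected reads in a library could have been missed at its depth.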
